A study of Mus musculus with 27 samples.

Results

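The genes described are 3 Egr factors (Egr1, Egr2 and Egr3), their co-repressors Nab1 and Nab2, the serum response factor gene Srf, and 3 genes of the early serum response, Ier2, Ier3 and Csrnp1. They were chosen by gene symbol: every probe set whose symbol in the platform's gene table was one of these 9 names was taken. Each name had 1 probe set, which gave 9 of the 28853 probe sets on the array and 9 of the 19938 genes tested.

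The arrays measured total RNA of the mouse line 3T3-L1, fibroblasts that become fat cells in culture under adipogenic hormones. Cells carrying Flag-ISL1 (the LIM homeodomain protein ISL1 with a Flag epitope) were sampled at 0 and 48 h, and cells carrying the empty pMIG vector at 0, 0.5, 1, 2, 4, 8 and 48 h, with 3 arrays in each of the 9 groups. Time was counted from the change of medium, made 2 days after confluence, to one with 10% fetal calf serum, 350 nM insulin, 400 nM biotin, 250 nM of the synthetic glucocorticoid dexamethasone, and 0.5 mM isobutylmethylxanthine, a phosphodiesterase inhibitor through which cAMP builds up. The 0 h cells were taken just before it, and all groups share the line and the growth to confluence. The labels name no promoter for the construct and do not say whether either line was 1 clone. The series describes the arrays of a group as biological triplicates, with no further detail, so the p-values measure the spread between these samples.

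Values are log2 intensities as deposited, so a difference of 1 is a 2-fold change. They compare 1 probe set between samples and cannot rank one gene against another. Calls are those of a limma fit to all 27 arrays, at a Benjamini-Hochberg adjusted p under 0.05 over all genes of a comparison, and ± gives the standard error with 3 arrays in each group.

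Replicate arrays correlated between 0.9931 and 0.9986, and for 26 of the 27 arrays the most similar array was of the same group. Since levels of different probe sets cannot be ranked, the marker levels that follow are only a rough description of the cells. Of 10 preadipocyte and fibroblast markers 9 were measured, with a median level of 12.97 in vector cells at 0 h, where the median of all genes was 8.29. Cd34 was the lowest of them, at 7.89. The 10 adipocyte markers had a median of 10.15 there, from 6.53 (Lep) to 13.175 (Lpl). The 5 endothelial markers lay between 6.32 and 7.17 there. Of the 8 macrophage and blood markers Adgre1 was lowest at 5.94 and Lyz2 highest at 12.05.

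The construct went against the titles at 48 h. Isl1 read 12.64, 12.62 and 12.61 in ISL1 cells at 0 h, against 7.37, 7.47 and 7.17 in vector cells at 0 h. At 48 h it read 7.48, 8.01 and 7.47 on the arrays labelled ISL1, against 12.79, 12.76 and 12.72 on those labelled vector. At 0 h Isl1 was thus 5.29 ± 0.11 higher in ISL1 cells (limma adjusted p = 1.5e-22), and at 48 h the difference on the arrays labelled ISL1 was -5.11 ± 0.11 (limma adjusted p = 5.2e-22). No array was moved to another group. Every 48 h value below is given as labelled, and again with the 48 h titles exchanged where the exchange changed a call.

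EGR proteins are zinc finger transcription factors that bind GC-rich sites, and their genes are among the first to be transcribed when resting cells meet serum, hormones or other stimuli. SRF is bound to CArG boxes (CC, a run of A or T, GG) in the promoters of many such genes, where ternary complex factors phosphorylated by the ERK kinases switch it on. SRF works with the myocardin-related cofactors (MRTFs) on a separate set of genes for the actin cytoskeleton. NAB1 and NAB2 bind EGR proteins and repress their activity. In 3T3-L1 cells, EGR2 is known as a factor that promotes early adipogenesis, while EGR1 has been described as holding it back.

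The promoters show which of these genes carry the sites that SRF and EGR proteins are known to read. The RefSeq promoter table used here (GRCm38.p6) held the 250 bases before the start of 6 of the 9 genes (Egr2, Nab1, Nab2, Srf, Ier3 and Csrnp1). It had no entry for Egr1, Egr3 and Ier2, so the promoters of these genes were not searched. The 4 windows below each hold a CArG box or an EGR site. For Egr2, which has 5 listed starts, only the windows of starts 2 and 3 are printed, though those of starts 4 and 5 hold a CArG box too. They are written 5′ to 3′ on the strand of the gene, with CArG boxes and EGR sites in capitals, in lower case elsewhere, and lie at chr10:67537316-67537565 (plus strand, Egr2 start 2), chr10:67537619-67537868 (plus strand, Egr2 start 3), chr17:46556163-46556412 (minus strand, Srf) and chr1:52500449-52500698 (minus strand, Nab1).
Egr2 start 2: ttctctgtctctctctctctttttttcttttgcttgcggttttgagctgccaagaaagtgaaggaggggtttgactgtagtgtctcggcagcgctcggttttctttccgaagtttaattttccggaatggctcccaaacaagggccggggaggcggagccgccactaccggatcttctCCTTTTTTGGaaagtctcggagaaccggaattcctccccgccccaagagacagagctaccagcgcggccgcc
Egr2 start 3: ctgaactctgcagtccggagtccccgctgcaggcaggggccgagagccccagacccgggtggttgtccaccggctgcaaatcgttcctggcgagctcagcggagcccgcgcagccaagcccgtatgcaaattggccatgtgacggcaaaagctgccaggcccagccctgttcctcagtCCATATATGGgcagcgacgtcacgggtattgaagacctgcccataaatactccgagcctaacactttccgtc
Srf: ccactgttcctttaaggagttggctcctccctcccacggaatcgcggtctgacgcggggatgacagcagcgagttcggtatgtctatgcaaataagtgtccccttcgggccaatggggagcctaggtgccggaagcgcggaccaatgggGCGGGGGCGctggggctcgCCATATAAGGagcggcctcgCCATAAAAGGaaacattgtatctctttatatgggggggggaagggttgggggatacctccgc
Nab1: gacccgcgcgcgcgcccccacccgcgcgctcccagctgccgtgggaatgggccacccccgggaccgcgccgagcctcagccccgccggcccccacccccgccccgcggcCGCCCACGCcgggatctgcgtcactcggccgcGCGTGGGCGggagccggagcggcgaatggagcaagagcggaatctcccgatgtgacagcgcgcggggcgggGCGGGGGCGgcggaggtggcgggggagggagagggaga

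A CArG box lay 72 to 63 bases before Egr2 start 2 and before start 3. The box of start 3 also lay 73 to 64 bases before start 4 and 133 to 124 bases before start 5, and start 1 had none. Srf itself held 2, at 82 to 73 and 62 to 53 bases before the start. Thus 2 of the 6 genes with a window held a CArG box, which 1.47% of the 32851 windows in the table hold (482 windows, 1.62% of 27025 genes). The motifs were searched on both strands. The EGR site GCGTGGGCG was in the Nab1 window on each strand, at 109 to 101 and at 141 to 133 bases before the start, and in 0.536% of all windows. Its variant GCGGGGGCG was in the Nab1 window at 38 to 30 bases and in the Srf window at 101 to 93 bases, and in 2.57% of all windows. The full cAMP response element TGACGTCA was in 0 of the 6 genes' windows (1.55% of all windows, 1.77% of genes). Its core TGACG was in those of Egr2, Nab1, Srf and Csrnp1 (17.8% of all windows, 19.8% of genes). The core also lies within the full element, so these searches overlap. The AP-1 site TGACTCA was found for Csrnp1 only (4.46% of all windows, 5.16% of genes). The ETS core CCGGAA was found for Egr2 and Srf (12.0% and 13.6%), and the NF-kB site for none of the 6 (0.14% and 0.159%). Genes with several listed starts, such as Egr2 and Csrnp1, have more windows in which a match can fall. A match is a run of letters and was not tested as a binding site.

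By 0.5 h in the hormone mixture the early response genes had risen while Srf and the co-repressors did not pass the test. At 0.5 h 6 of the 9 genes were higher than at 0 h (all 3 Egr genes, Ier2, Ier3 and Csrnp1) and 0 were lower by limma, with 7 of 9 at an unadjusted p under 0.05. Of all genes 0.777% rose and 0.502% fell at this time. At 1 h 8 of the 9 were higher and 0 lower (8 at an unadjusted p under 0.05), against 2.78% of all genes higher and 4.29% lower. The median difference of the 9 genes at 1 h was 2.77, against -0.02 over all genes. Nab1 was the gene that did not pass at 1 h, with a difference of 0.11 ± 0.074 (limma adjusted p = 0.58). Over the 6 times from 0 to 8 h all 9 genes changed by the F test, as did 51.7% of all genes.

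**Figure D1:**
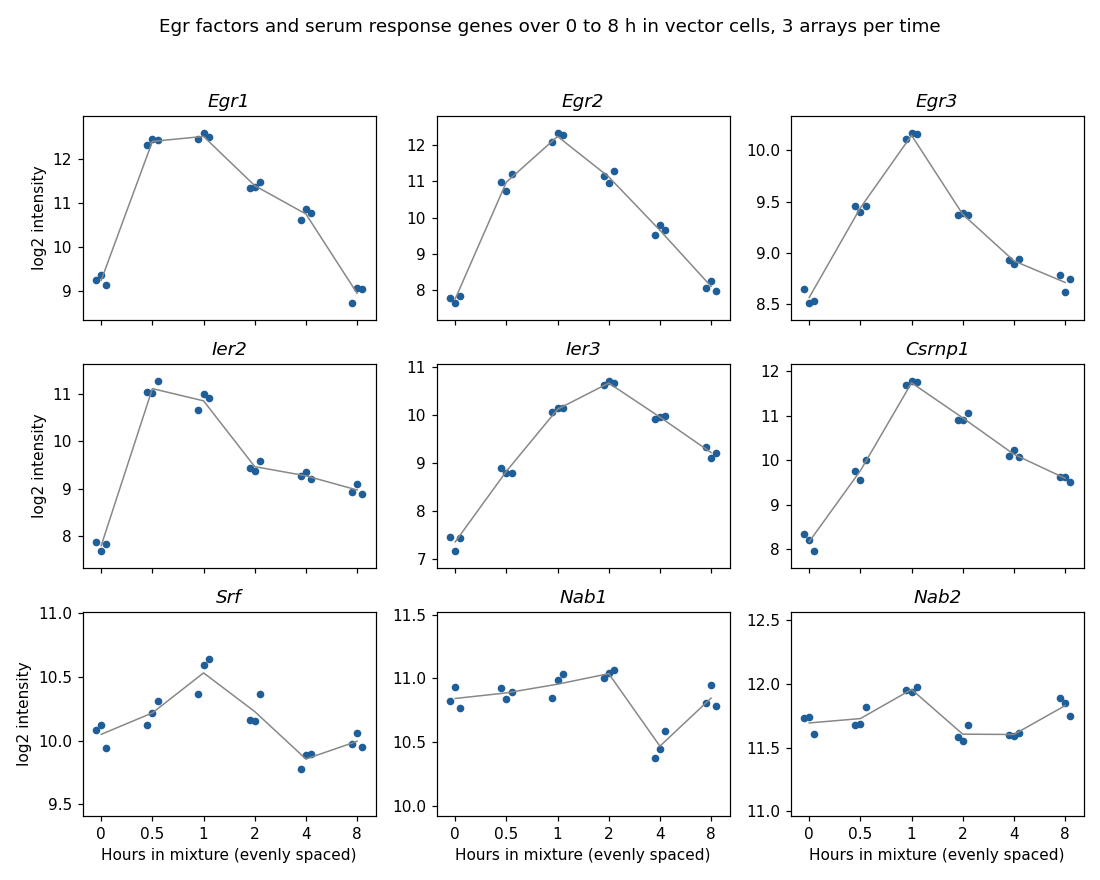
Log2 intensity (vertical axis, a separate range for each gene) of the 9 genes over the 6 times from 0 to 8 h in vector cells, evenly spaced on the horizontal axis, with 1 point per array and a line through the means of 3 arrays. Egr1, Egr2, Egr3, Ier2, Ier3 and Csrnp1 peak at 0.5, 1 or 2 h, while the vertical ranges of Srf, Nab1 and Nab2 are much narrower.

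Egr1, the founding member of the family and a classic serum-induced gene, was already near its highest level at 0.5 h. It read 9.24, 9.34 and 9.12 at 0 h, 12.32, 12.44 and 12.43 at 0.5 h, and 12.45, 12.59 and 12.48 at 1 h. It then read 11.33, 11.36 and 11.47 at 2 h, 10.61, 10.85 and 10.77 at 4 h, and 8.72, 9.07 and 9.03 at 8 h. The arrays at 0.5 and 1 h stand together above all others, and every 8 h array lies below every 0 h array. The rise was 3.16 ± 0.081 at 0.5 h (limma adjusted p = 2.8e-20) and 3.27 ± 0.081 at 1 h (adjusted p = 1.1e-20), a 9.65-fold peak. The step of 0.11 ± 0.081 from 0.5 to 1 h did not pass (adjusted p = 0.79). A straight line between the means put Egr1 1 log2 unit under its peak at 1.89 h. At 8 h Egr1 was lower than at 0 h by limma, with a difference of -0.30 ± 0.081 (adjusted p = 0.0034), and that call was lost without the first 8 h array (-0.19, adjusted p = 0.054).

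Egr2, the family member best known from nerve myelination and from early adipogenesis, had the largest rise of the 9 genes. It read 7.78, 7.65 and 7.84 at 0 h, 10.99, 10.73 and 11.21 at 0.5 h, and 12.09, 12.34 and 12.29 at 1 h. It read 11.14, 10.95 and 11.28 at 2 h, 9.52, 9.79 and 9.65 at 4 h, and 8.07, 8.26 and 7.99 at 8 h. The 1 h arrays are above all others, the 0.5 and 2 h arrays overlap, and the 8 h arrays lie just above the 0 h arrays. Egr2 rose by 3.22 ± 0.11 at 0.5 h (limma adjusted p = 3.2e-17) and by 4.48 ± 0.11 at 1 h (adjusted p = 1.3e-20), a 22.3-fold peak. The step from 0.5 to 1 h, 1.26 ± 0.11, passed for Egr2 (adjusted p = 1.1e-08). It was 1 log2 unit under the peak at 1.90 h, and 7.71% of its log2 rise was left at 8 h. That remainder of 0.34 ± 0.11 passed the test (adjusted p = 0.014), but not without the second 0 h array (0.29, adjusted p = 0.068) or the second 8 h array (0.27, adjusted p = 0.070).

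Egr3, a close relative known for its roles in muscle spindles and lymphocytes, rose less on its probe set. It read 8.64, 8.51 and 8.53 at 0 h, 9.46, 9.40 and 9.46 at 0.5 h, and 10.11, 10.17 and 10.16 at 1 h. It read 9.37, 9.38 and 9.37 at 2 h, 8.93, 8.89 and 8.93 at 4 h, and 8.78, 8.61 and 8.74 at 8 h. Arrays of the same time lie close together, none of these groups overlap from 0.5 to 4 h, and the 8 h arrays overlap those at 0 h. The rise was 0.88 ± 0.067 at 0.5 h (limma adjusted p = 4.6e-10) and 1.59 ± 0.067 at 1 h (adjusted p = 7.7e-16), a 3.01-fold peak. Egr3 was 1 log2 unit under its peak at 2.99 h. At 8 h the difference from 0 h was 0.15 ± 0.067 (adjusted p = 0.075).

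**Figure D2:**
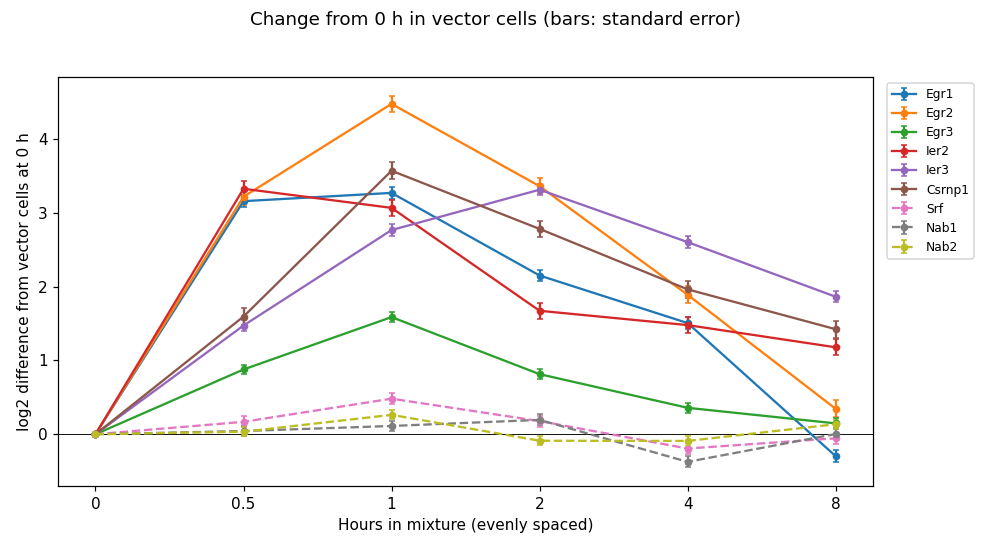
Log2 difference from vector cells at 0 h (vertical axis) at each time from 0 to 8 h (horizontal axis, evenly spaced) for the 9 genes, with bars of 1 standard error of the limma fit. Egr2 reaches 4.48 at 1 h, Ier3 reaches 3.31 at 2 h, and the dashed lines of Srf, Nab1 and Nab2 stay between -0.37 and 0.48.

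Ier2, a small nuclear protein gene of the immediate early response, alone among the 9 had its highest mean at 0.5 h. It read 7.87, 7.68 and 7.83 at 0 h, 11.05, 11.03 and 11.28 at 0.5 h, and 10.67, 10.99 and 10.92 at 1 h. It read 9.43, 9.37 and 9.59 at 2 h, 9.26, 9.35 and 9.20 at 4 h, and 8.92, 9.10 and 8.89 at 8 h. The arrays fall into a high pair of times (0.5 and 1 h), an intermediate run from 2 to 8 h and the low 0 h arrays, with no overlap between these. The rise at 0.5 h was 3.33 ± 0.11 (limma adjusted p = 1.1e-17), a 10.0-fold change, and the step of -0.26 ± 0.11 from 0.5 to 1 h did not pass (adjusted p = 0.34). Ier2 was 1 log2 unit under its peak at 1.53 h, the earliest time among the 6 genes that fell this far. Counted from each gene's own peak, this took 1.03 h for Ier2, against 0.893 h for Egr1 and 0.897 h for Egr2. It kept 35.4% of its log2 rise at 8 h, where it was still 1.18 ± 0.11 higher than at 0 h (adjusted p = 1.2e-09).

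Ier3, a stress-inducible gene linked to cell survival and ERK signalling, peaked latest of the 6 early genes. It read 7.46, 7.17 and 7.44 at 0 h, 8.89, 8.80 and 8.80 at 0.5 h, and 10.06, 10.15 and 10.16 at 1 h. It read 10.62, 10.71 and 10.67 at 2 h, 9.92, 9.97 and 9.99 at 4 h, and 9.33, 9.11 and 9.22 at 8 h. No 2 of these 6 times overlap, and the 2 h arrays are the highest. The rise was 1.47 ± 0.078 at 0.5 h (limma adjusted p = 2.8e-13) and 3.31 ± 0.078 at 2 h (adjusted p = 2.5e-21), a 9.95-fold peak. Ier3 was not 1 log2 unit under its peak until 5.57 h, and 56.2% of its log2 rise, 1.86 ± 0.078, was left at 8 h (adjusted p = 2.0e-16).

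Csrnp1, which encodes a nuclear protein first described as induced by AXIN1, peaked at 1 h with the Egr genes. It read 8.35, 8.20 and 7.97 at 0 h, 9.76, 9.55 and 10.00 at 0.5 h, and 11.69, 11.79 and 11.76 at 1 h. It read 10.91, 10.90 and 11.06 at 2 h, 10.10, 10.24 and 10.07 at 4 h, and 9.63, 9.63 and 9.52 at 8 h. Only the 0.5 and 8 h arrays overlap. Csrnp1 rose by 1.60 ± 0.11 at 0.5 h (limma adjusted p = 1.3e-10) and by 3.57 ± 0.11 at 1 h (adjusted p = 1.9e-18), an 11.9-fold peak. More of its rise came after 0.5 h, with a step of 1.98 ± 0.11 to 1 h (adjusted p = 3.0e-12). It was 1 log2 unit under its peak at 2.52 h and kept 39.9% of its log2 rise at 8 h, where the difference from 0 h was 1.42 ± 0.11 (adjusted p = 5.9e-11).

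Srf, whose protein drives many of these genes, moved by much less. It read 10.08, 10.13 and 9.94 at 0 h, 10.13, 10.22 and 10.31 at 0.5 h, and 10.36, 10.59 and 10.64 at 1 h. It read 10.16, 10.15 and 10.37 at 2 h, 9.78, 9.89 and 9.90 at 4 h, and 9.97, 10.06 and 9.95 at 8 h. All 3 arrays at 1 h lie above all at 0 h, 1 of the 2 h arrays overlaps the 1 h group, and the 4 h arrays are the lowest. The rise at 1 h was 0.48 ± 0.075 (limma adjusted p = 5.0e-05), a 1.40-fold change. The difference at 4 h was -0.19 ± 0.075 (adjusted p = 0.041), a call that was lost when any of 5 of the 6 arrays was left out and with each array centred on its median (-0.10, adjusted p = 0.31).

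The co-repressor genes moved least and not together. Nab1 read 10.82, 10.93 and 10.77 at 0 h, 10.92, 10.84 and 10.90 at 0.5 h, and 10.84, 10.99 and 11.03 at 1 h. It read 11.00, 11.04 and 11.07 at 2 h, 10.37, 10.45 and 10.58 at 4 h, and 10.80, 10.95 and 10.78 at 8 h. The 4 h arrays alone stand apart, below all others. Nab1 fell by 0.37 on the log2 scale at 4 h against 0 h (standard error 0.074, limma adjusted p = 0.00014), and its difference at 2 h was 0.19 ± 0.074 (adjusted p = 0.051). Nab2 read 11.74, 11.74 and 11.61 at 0 h, 11.68, 11.69 and 11.82 at 0.5 h, and 11.95, 11.94 and 11.98 at 1 h. It read 11.59, 11.55 and 11.68 at 2 h, 11.60, 11.59 and 11.62 at 4 h, and 11.89, 11.85 and 11.75 at 8 h. The 1 h arrays are the highest and overlap no other time. Nab2 rose by 0.26 ± 0.063 at 1 h (adjusted p = 0.0066), a 1.20-fold change that did not pass without the third 0 h array (0.22, adjusted p = 0.061) or when only the arrays compared were fitted (adjusted p = 0.12).

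At 2 and 4 h the 6 early genes were still higher than at 0 h. At 2 h 6 of the 9 were higher and 0 lower than at 0 h by limma (8 at an unadjusted p under 0.05), against 10.9% higher and 17.5% lower over all genes. At 4 h 6 were higher and 2 lower (Nab1 and Srf), against 17.3% and 22.7%. At 8 h 4 were higher (Egr2, Ier2, Ier3 and Csrnp1) and 1 lower (Egr1), against 24.2% higher and 21.9% lower over all genes. The 9 genes had a median difference from 0 h of 1.67 at 2 h (0.0023 over all genes), 1.48 at 4 h (0.026) and 0.15 at 8 h (0.071).

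From one time to the next, the direction changed after 1 h. Between 0.5 and 1 h 6 of the 9 rose (Egr2, Egr3, Nab2, Srf, Ier3 and Csrnp1) and 0 fell by limma (7 at an unadjusted p under 0.05), against 1.84% and 1.77% of all genes. Between 1 and 2 h 1 rose, Ier3 by 0.55 ± 0.078 (limma adjusted p = 5.4e-06), and 7 fell, against 9.47% and 11.3%. Ier2 had the largest fall of that step, with a difference of -1.39 ± 0.11 (adjusted p = 3.5e-10), and Egr1 and Egr2 had differences of -1.12 each. With only the arrays compared fitted, the 0.5 to 1 h steps of Nab2 (limma adjusted p = 0.29) and Srf (adjusted p = 0.20) and the 1 to 2 h step of Srf (adjusted p = 0.086) did not pass.
Between 2 and 4 h 0 rose and 7 fell by limma (7 at an unadjusted p under 0.05), against 13.7% and 14.2%, with Egr2 falling most (-1.47 ± 0.11, adjusted p = 2.0e-10). Between 4 and 8 h 2 rose (Nab1 by 0.38 and Nab2 by 0.23) and 6 fell, against 13.7% and 10.2%. Egr1 fell most in that step, with a difference of -1.80 ± 0.081 (adjusted p = 1.5e-14). The smallest falls of that step, Egr3 (-0.21, adjusted p = 0.021) and Ier2 (-0.30, adjusted p = 0.050), were lost when any of 3 arrays for Egr3, or of 5 for Ier2, was left out.

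The time courses of the Egr genes resembled each other and those of other quickly induced genes. Likeness was measured as Pearson's r over the 18 vector arrays from 0 to 8 h, which all genes share, and is a description only. Among the 9 genes r was 0.956 between Egr1 and Egr2, 0.952 between Egr2 and Egr3, and 0.894 between Egr1 and Egr3. Such values were not limited to the Egr genes: r was 0.896 between Egr1 and Ier2 and 0.872 between Egr2 and Csrnp1, but 0.504 between Egr1 and Ier3. It was 0.893 between Ier3 and Csrnp1, 0.366 between Nab1 and Nab2, and -0.012 between Nab2 and Ier3.
Outside the 9, the genes most like Egr1 were Ccl7 (a chemokine, r = 0.968), Btg2 (an antiproliferative early gene, 0.960) and Spry2 (a feedback inhibitor of receptor tyrosine kinases, 0.958). For Egr2 they were Ptgs2 (prostaglandin synthase, 0.982), Sgk1 (a glucocorticoid-induced kinase, 0.982) and Spry2 (0.977), and for Egr3 Il6 (a cytokine, 0.978), Sgk1 (0.971) and Spry2 (0.970). Ptgs2 had the same order of times as Egr2, with differences from 0 h of 4.34 at 0.5 h, 5.46 at 1 h, 4.64 at 2 h, 3.10 at 4 h and 1.37 at 8 h.
Ier2 was most like Fos (an AP-1 subunit, 0.975), Cxcl1 (a chemokine, 0.958) and Junb (an AP-1 subunit, 0.954). Fos also had its highest mean of these times at 0.5 h, with differences of 4.39 at 0.5 h, 4.09 at 1 h and 1.81 at 2 h. Ier3 was most like Trib1 (a pseudokinase, 0.987), Irs2 (an insulin receptor substrate, 0.984) and Ddit4 (an mTORC1 inhibitor, 0.983). Trib1, like Ier3, was highest at 2 h, with 2.36 above 0 h. Csrnp1 was most like the forkhead gene Foxc2 (0.977), the nuclear receptor gene Nr4a2 (0.977) and the AP-1 gene Fosl2 (0.970). Srf was most like Rnd3 (0.934), Nfkbie (an NF-kB inhibitor, 0.931) and Cpeb3 (an RNA-binding protein, 0.926). Nab1 was most like Nfia (0.903), Nhs (0.886) and Poc1b (0.885), and Nab2 like Rrbp1 (0.773), Brsk1 (0.771) and Ncoa7 (0.761), at lower values of r.

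Other immediate early genes rose at the same times. Of 32 such genes (the AP-1 and Nr4a families, Klf factors, Dusp phosphatases and others) 27 rose and 0 fell at 0.5 h by limma (29 at an unadjusted p under 0.05), and 29 rose and 1 fell at 1 h. The largest rises at 1 h were those of the nuclear receptor genes Nr4a3 (4.83 ± 0.12) and Nr4a1 (4.70 ± 0.064) and of Fos (4.09 ± 0.10), and the gene that fell was Klf10 (-0.79 ± 0.074, limma adjusted p = 1.2e-08). The list's counts were 26 higher and 3 lower at 2 h, 26 higher and 3 lower at 4 h, and 20 higher and 4 lower at 8 h. Of all genes 0.777% were higher and 0.502% lower at 0.5 h, and 2.78% and 4.29% at 1 h. At 2, 4 and 8 h 10.9%, 17.3% and 24.2% of all genes were higher, and 17.5%, 22.7% and 21.9% lower.
Relatives of the 9 genes were also read. Egr4 had differences of 0.06 at 0.5 h and -0.01 at 1 h and passed at none of the 5 times up to 8 h, nor did Csrnp3. Ier5 and Ier5l, relatives of Ier2, rose at 1 h by 0.51 ± 0.11 (adjusted p = 0.0017) and 0.52 ± 0.064 (adjusted p = 1.4e-06). Csrnp2 rose at 2 h by 0.56 ± 0.12 (adjusted p = 0.00044).

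SRF's cofactors and the kinases of the ERK route (13 of 19 listed genes measured) had 0 calls by limma at 0.5 h and at 1 h, with 0 and 2 at an unadjusted p under 0.05. Of all genes 0.777% were higher and 0.502% lower at 0.5 h, and 2.78% and 4.29% at 1 h. At such shares 0 calls in a list this short do not set it apart from all genes. At 4 h 3 were higher and 5 lower (17.3% and 22.7% of all genes), and at 8 h 2 were higher and 4 lower (24.2% and 21.9% of all genes). The actin cytoskeleton targets of SRF and the MRTFs (17 of 18 measured) had 0 calls by limma at 0.5 and 1 h too, with 3 and 5 at an unadjusted p under 0.05. The same shares of all genes apply, so these 0 calls do not set this list apart either. At 2 h 5 were higher and 3 lower, at 4 h 2 were higher and 9 lower, and at 8 h 1 was higher and 14 were lower, with a median of -0.78 against 0.071 over all genes. At these times 10.9%, 17.3% and 24.2% of all genes were higher, and 17.5%, 22.7% and 21.9% lower. The 3 lower at 2 h are thus near the share of all genes. At 8 h Cnn2, which binds actin, had a difference of -1.89 ± 0.071, and Tpm1, a tropomyosin, one of -1.63 ± 0.054, while Tpm4 rose by 0.34 ± 0.057. These 3 were chosen after their values were seen. At 8 h 7 of the 9 preadipocyte and fibroblast markers were also lower (median -0.50), against 21.9% of all genes, and their part in these falls was not tested. Fewer cells of a type and less RNA per cell cannot be told apart in these bulk samples.
Genes known from other work as EGR1 or EGR2 targets (15 of 22 measured) gave 2 higher and 0 lower at 0.5 h by limma (5 at an unadjusted p under 0.05) and 5 higher and 0 lower at 1 h (6 at an unadjusted p under 0.05). The shares of all genes were 0.777% higher and 0.502% lower at 0.5 h, and 2.78% and 4.29% at 1 h. The largest rises at 1 h were in Cebpb, an early adipogenic transcription factor (2.54 ± 0.086), Gadd45b, a stress response gene (1.67 ± 0.099), and Vegfa, an angiogenic growth factor (0.90 ± 0.064). The counts were 5 higher and 1 lower of 15 at 2 h, 4 higher and 5 lower at 4 h, and 5 higher and 6 lower at 8 h, times at which 10.9%, 17.3% and 24.2% of all genes were higher and 17.5%, 22.7% and 21.9% lower. The median difference at 1 h was 0.05, against -0.02 over all genes.

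**Figure D3:**
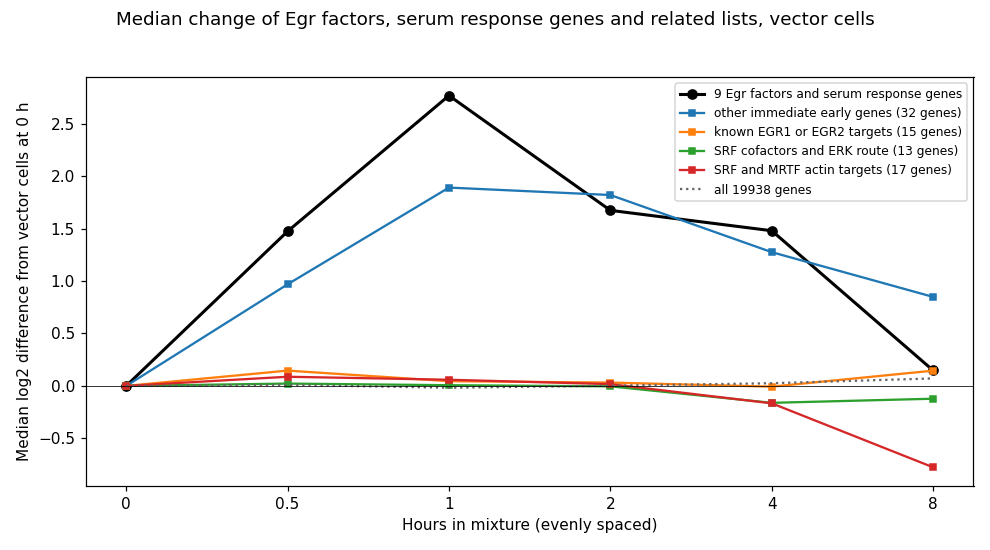
Median log2 difference from vector cells at 0 h (vertical axis) at each time from 0 to 8 h (horizontal axis, evenly spaced) for the 9 genes, 4 related gene lists and all 19938 genes. The 9 genes reach 2.77 and the other immediate early genes 1.89 at 1 h, while the actin targets of SRF stand at -0.78 at 8 h.

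Before the hormone mixture, Egr1 differed most of the 9 genes between ISL1 and vector cells. Egr1 read 10.16, 10.08 and 10.10 in ISL1 cells at 0 h, against 9.24, 9.34 and 9.12 in vector cells. The groups do not overlap, and the ISL1 arrays lie well below the vector arrays at 0.5 h. The difference was 0.88 ± 0.081 (limma adjusted p = 2.6e-09). Ier3 read 7.03, 7.24 and 7.00 in ISL1 cells, against 7.46, 7.17 and 7.44 in vector cells. Its groups overlap, with 1 ISL1 array above 1 vector array, and the difference of -0.27 ± 0.078 (adjusted p = 0.012) lost its call when any 1 of 4 arrays was left out. Thus 1 of the 9 genes was higher and 1 lower in ISL1 cells, against 15.3% of all genes higher and 10.4% lower.
The other 7 genes did not pass at 0 h. Egr2 read 8.03, 7.90 and 7.80 in ISL1 cells, against 7.78, 7.65 and 7.84 in vector cells, a difference of 0.15 ± 0.11 (adjusted p = 0.42). The remaining differences lay between -0.15 (Nab1) and 0.10 (Nab2). Other genes that moved with the construct at 0 h include 9 of 10 adipocyte markers, which were lower in ISL1 cells (median difference -1.60, median level 7.96 in ISL1 cells and 10.15 in vector cells), and 6 of 9 preadipocyte and fibroblast markers, also lower (median -0.39). Of the 8 macrophage and blood markers 2 were lower, Lyz2 by a difference of -4.84 ± 0.087. Their part in the Egr1 difference was not tested.

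At 48 h several of the early genes were again, or still, above their 0 h level. As labelled, 6 of the 9 were higher in vector cells at 48 h than at 0 h (Egr1, Egr2, Nab1, Ier2, Ier3 and Csrnp1) and 0 were lower by limma (6 at an unadjusted p under 0.05), against 18.1% of all genes higher and 18.7% lower. With the 48 h titles exchanged the counts were 3 higher (Egr1, Egr2 and Ier2) and 2 lower (Nab2 and Ier3). The shares of all genes just given are those as labelled and do not belong to the exchanged counts. No shares with the titles exchanged are given here, so the exchanged counts are not set against all genes. Egr2 and Ier2 rose under either reading: Egr2 by 1.47 ± 0.11 as labelled and by 2.36 ± 0.11 exchanged, and Ier2 by 1.11 ± 0.11 as labelled and by 0.90 ± 0.11 exchanged. The Nab1 difference of 0.20 ± 0.074 as labelled (limma adjusted p = 0.032) was lost when any of 4 arrays was left out. The size of the Egr1 rise depended on the titles, at 1.54 ± 0.081 as labelled (limma adjusted p = 1.7e-14) and 0.35 ± 0.081 exchanged (adjusted p = 0.00080). The 48 h arrays of both labels lie above the 8 h arrays for Egr1 and Egr2, while those of Egr3 overlap them.

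Between the 48 h groups Egr1 and Egr2 differed in opposite directions. Egr1 read 9.56, 9.63 and 9.57 on the arrays labelled ISL1, against 10.76, 10.74 and 10.83 on those labelled vector. Egr2 read 10.07, 10.06 and 10.23 on the arrays labelled ISL1, against 9.22, 9.08 and 9.38 on those labelled vector. In neither gene do the groups overlap. As labelled, the difference was -1.19 ± 0.081 for Egr1 (limma adjusted p = 8.1e-12) and 0.89 ± 0.11 for Egr2 (adjusted p = 5.9e-07), and the exchange of titles turns both signs round. On the arrays with high Isl1 signal, those labelled vector, Egr1 was thus the higher and Egr2 the lower. At 0 h Egr1 was also higher in the cells with high Isl1 signal, while Egr2 did not pass (0.15 ± 0.11). Ier3 changed sign, from -0.27 ± 0.078 in ISL1 cells at 0 h to 0.65 ± 0.078 on the 48 h arrays with high Isl1 signal. Its call at 0 h was lost when single arrays were left out. Nab1 changed sign too, from -0.15 (not passed) to 0.27, and Nab2 kept its sign, at 0.10 (not passed) and 0.35.
Nab2 read 11.34, 11.24 and 11.19 on the arrays labelled ISL1, against 11.68, 11.54 and 11.58 on those labelled vector, a difference of -0.35 ± 0.063 (adjusted p = 9.1e-05). Ier3 read 7.14, 7.17 and 7.02 on the arrays labelled ISL1, against 7.68, 7.80 and 7.81 on those labelled vector, a difference of -0.65 ± 0.078 (adjusted p = 2.3e-07). The groups of Nab2 and of Ier3 do not overlap. Csrnp1 read 8.40, 8.27 and 8.18 on the arrays labelled ISL1, against 8.72, 8.42 and 8.91 on those labelled vector. The Csrnp1 groups lie next to each other without overlap, and the difference of -0.40 ± 0.11 (adjusted p = 0.0082) was lost without the third array labelled vector (-0.29, adjusted p = 0.086). Nab1 read 10.89, 10.62 and 10.81 on the arrays labelled ISL1, against 11.12, 10.99 and 11.03 on those labelled vector. Its difference of -0.27 ± 0.074 (adjusted p = 0.0062) was lost without the second array labelled ISL1 (-0.19, adjusted p = 0.066).
In all, 1 of the 9 genes was higher and 5 were lower on the arrays labelled ISL1, against 14% of all genes higher and 13.8% lower. With the titles exchanged 5 were higher and 1 lower, and these shares of all genes change places, since the exchange only turns the signs round. Egr3, Srf and Ier2 did not pass, at -0.05, -0.02 and -0.21. On the arrays labelled ISL1 9 of 10 adipocyte markers were higher at 48 h (median difference 1.31, median level 11.31 on the arrays labelled ISL1 and 9.21 on those labelled vector), while 2 of 9 preadipocyte and fibroblast markers were higher and 1 was lower (median difference -0.02). Their part in these differences was not tested.

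**Figure D4:**
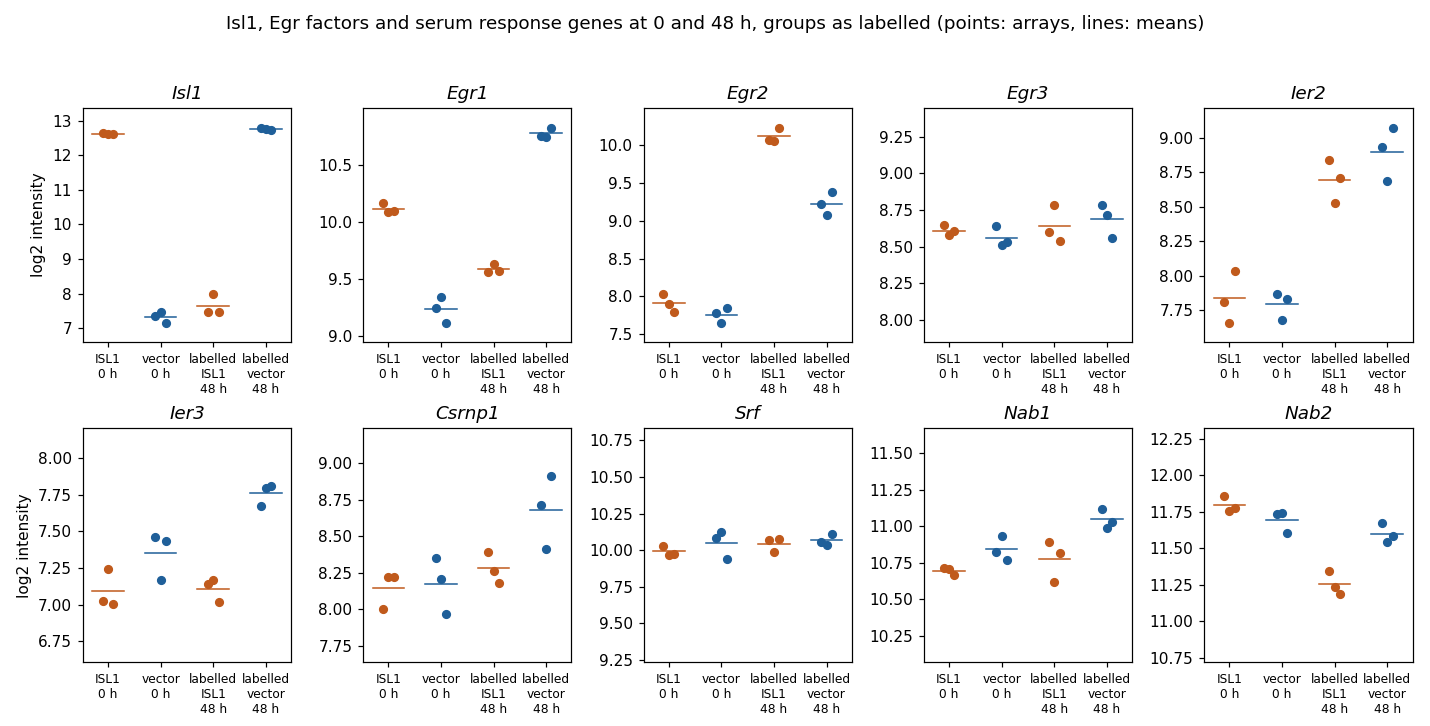
Log2 intensity (vertical axis, a separate range for each gene) of Isl1 and the 9 genes in ISL1 cells at 0 h, vector cells at 0 h, and the 48 h arrays by label, ISL1 before vector, with 1 point per array and lines at the means of 3 arrays. Isl1 is high on the 48 h arrays labelled vector, where Egr1 is above and Egr2 below its level on those labelled ISL1.

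ISL1 cells at 48 h were also set against ISL1 cells at 0 h, the 48 h arrays being taken as labelled. Here 2 of the 9 genes were higher (Egr2 and Ier2) and 2 lower (Egr1 and Nab2), against 20.9% of all genes higher and 22.2% lower. Egr2 rose by 2.21 ± 0.11 (limma adjusted p = 7.3e-15), Ier2 by 0.85 ± 0.11 (adjusted p = 3.6e-07), Egr1 fell by 0.53 on the log2 scale (adjusted p = 4.2e-06) and Nab2 fell by 0.54 (adjusted p = 5.5e-08). With the titles exchanged Egr2 rose by 1.32 ± 0.11, Ier2 by 1.06 ± 0.11 and Egr1 by 0.66 ± 0.081, and Nab2 fell by 0.20 on the log2 scale (adjusted p = 0.016). In that reading 6 of the 9 were higher, also Nab1 (0.35), Ier3 (0.67) and Csrnp1 (0.53), and 1 was lower. No share of all genes is given for that reading, so its counts are not set against all genes. The actin cytoskeleton targets of SRF had 0 higher and 16 lower of 17 in this comparison (median -1.24), and 1 higher and 14 lower in vector cells at 48 h against 0 h (median -1.07), as labelled. Markers moved in these comparisons too, and their counts are given as labelled only. The 48 h arrays labelled ISL1 are those with low Isl1 signal. On these arrays, against ISL1 cells at 0 h, 9 of 10 adipocyte markers were higher (median 3.33). Of the preadipocyte and fibroblast markers 7 of 9 were lower there (median -0.48). On the 48 h arrays labelled vector, which have high Isl1 signal, 8 of 9 preadipocyte and fibroblast markers were lower than in vector cells at 0 h (median -1.04). Of 10 adipocyte markers 2 were higher and 4 lower (median -0.15). Of all genes 18.1% were higher and 18.7% lower in this last comparison. The median level of the adipocyte markers was 10.15 in vector cells at 0 h. At 48 h it was 9.21 on the arrays labelled vector and 11.31 on those labelled ISL1. The part of these markers in the falls of the actin targets was not tested.

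Whether the difference between the constructs changed between 0 and 48 h was tested in the same fit. As labelled, it changed for 4 genes, with 1 change upward and 3 downward, against 12.7% and 16.3% of all genes. The change was -2.07 ± 0.11 for Egr1 (limma adjusted p = 9.5e-14), 0.74 ± 0.16 for Egr2 (adjusted p = 0.00064), -0.45 ± 0.089 for Nab2 (adjusted p = 0.00027) and -0.39 ± 0.11 for Ier3 (adjusted p = 0.0082). With the titles exchanged it was 0.31 ± 0.11 for Egr1 (adjusted p = 0.048) and -1.04 ± 0.16 for Egr2 (adjusted p = 1.2e-05).

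Over all 9 groups, Egr1 was highest in vector cells at 1 h and lowest at 8 h, and only its 48 h level on the arrays labelled vector and its 4 h level overlapped as neighbours in that order. Egr2 and Ier2 were lowest in the 0 h cells of both constructs, which overlapped each other. Ier3 was lowest in ISL1 cells at 0 h and on the arrays labelled ISL1 at 48 h, which also overlapped. For Egr3 the 5 lowest groups (vector at 8 h, the 48 h arrays of both labels, and both constructs at 0 h) each overlapped the next. For Nab1 each group overlapped the next except vector cells at 4 h, the lowest.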

How the data were processed

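The deposited values are log2 intensities of 28853 probe sets on 27 arrays, 1 per sample. The submitters' processing notes name RMA without its software or version. The log2 base was settled from the range of the deposited values (3.35 to 14.85), since the labels do not state it. Values were used as deposited, with 0 missing.

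Probe sets with 1 symbol in the platform's gene table (21789) were kept, 1621 with several and 5443 with none were left out, symbols were updated through Entrez IDs (21698 found in the RefSeq table of GRCm38.p6), and the probe set with the highest mean was taken for each of 19938 genes. The 9 genes had 1 probe set each. Detection calls were not used, and the number of arrays limits the precision.

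Groups came from the sample labels. limma 3.58.1 in R 4.3.3 was fitted with 1 mean per group to all 27 arrays and its variances were moderated with eBayes (6.56 prior degrees of freedom). The 14 comparisons, two-sided, and 1 F test were each adjusted by Benjamini and Hochberg over 19938 genes. The fit was tested on simulated data. Decay times were read on straight lines between group means. Alternatives were other scalings, a filter on low values, only the arrays compared, another variance prior, all probe sets, a replicate block, each array left out, and exchanged 48 h titles.

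The 9 genes and the lists were chosen with earlier results of these data known. The rule named the 9 genes, Isl1, the 3 genes most like each, all family relatives, and up to 3 rises and 3 falls per list at 1 h. Same-numbered arrays deviated together (all 3 correlations over 0.1) in 4 of 36 pairs of groups, so the numbers were not taken to pair the samples. Marker lists covered preadipocytes and fibroblasts, adipocytes, macrophages and blood, and endothelium. Coordinates are those of the RefSeq promoter table (GRCm38.p6), and the labels name no genome build.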

Additional observations from a re-analysis of the deposited data

Results flagged for a closer look

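The difference between the constructs, ISL1 against vector, changed between 0 and 48 h by the limma test of that change for 4 of the 9 genes, with the 48 h arrays as labelled. The change was -2.07 for Egr1, which was higher in ISL1 cells at 0 h and lower on the arrays labelled ISL1 at 48 h. It was 0.74 for Egr2, -0.45 for Nab2 and -0.39 for Ier3. The Isl1 signal goes against the 48 h titles, and with the titles exchanged each of these 4 values has the other sign.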

How the results depend on the processing

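Of 1728 recomputed differences of single genes, 1600 kept their direction and their side of the threshold, 47 lost a call (35 on leaving out 1 array), 32 gained one, and 14 reversed, all 14 with the 48 h titles exchanged. Another 35 passed in neither fit and changed sign. Apart from the exchange, the largest difference that lost its call was 0.40. With the titles exchanged, the counts were 3 higher and 2 lower for vector 48 h against 0 h, 5 and 1 for ISL1 against vector at 48 h, 6 and 1 for ISL1 48 h against 0 h, and 4 and 1 for the change of the ISL1 effect. Apart from ISL1 against vector at 48 h, no shares of all genes are given for these exchanged counts. The exchange reversed Nab1 (-0.066) and Ier3 (-0.25) for vector 48 h against 0 h. It reversed Egr1 (1.19), Egr2 (-0.89), Nab1 (0.27), Nab2 (0.35), Ier3 (0.65) and Csrnp1 (0.40) for ISL1 against vector at 48 h, and Egr1 (0.66) for ISL1 48 h against 0 h. It also reversed Egr1 (0.31), Egr2 (-1.04), Nab1 (0.42), Nab2 (0.24) and Ier3 (0.92) for the change of the effect. With quantile normalization the count of lower genes was 1 at 2 h and 2 for ISL1 at 0 h, and that of higher genes was 4 for ISL1 48 h against 0 h. The cause was not tested. With arrays centred on their medians the lower count at 4 h was 1 (Nab1), where that scaling put the median of all genes at 0.12 against 0.026 as deposited (0.13 against 0.071 at 8 h). Fitting only the arrays compared left 0 lower for ISL1 at 0 h. Leaving out 1 array gave 1 to 2 lower at 4 h, 0 to 1 at 8 h and 0 to 1 for ISL1 at 0 h. The replicate block changed no count, such as the 8 higher at 1 h.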
